A study of Brassica napus with 12 samples.

Results

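H3K4me3 and H3K27me3 were compared within the siliques (seed pods) of HZ62, a *Brassica napus* (oilseed rape) material whose genotype the labels give as WT. The comparison rests on 4 of the 12 ChIP-seq (chromatin immunoprecipitation followed by sequencing) libraries of the study, 2 per mark, and the other 8 come from seedlings (named leaf in their titles) and flower buds of HZ62. Siliques were 3 to 5 cm long, seedlings 2 weeks old and buds under 2 mm, and all plants grew in 16 h of light at 22 °C and 8 h of dark at 18 °C, with no other treatment named. Whole organs were used, with antibodies of 1 supplier (Abclonal) to each mark. Regions found in both libraries of a mark were used: peaks of both lists were merged where they shared 1 bp or more, and a merged region was kept if each library had a peak in it. This gave 41991 H3K4me3 regions out of 44353 merged ones (94.7%) and 11612 H3K27me3 regions out of 24007 (48.4%) on the 19 numbered sequences of the genome. The files name no genes, and no annotation of their build was used here, so regions are given by position, 1-based, on the sequence number that ends each name. For the same reason the silique label could not be set against marker genes.

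H3K4me3 is trimethylation of lysine 4 of histone H3, and in plants it lies at the starts of transcribed genes. H3K27me3 is laid down by Polycomb repressive complex 2 and covers silent genes, many of them developmental regulators, often over the whole gene body. In plants as in animals some loci carry both marks, either on the same nucleosomes or in different cells of a mixed tissue, and a silique mixes pod wall, seed coat, endosperm and embryo. A peak list from a whole organ cannot tell these cases apart.

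The H3K4me3 libraries held 14339594 and 11209471 fragments and the H3K27me3 libraries 7441109 and 2654588. H3K27me3 replicate 2 was thus the shallowest of the 4, and of its 13570 peaks 99.5% lay in kept regions, against 48.6% of the 23955 peaks of replicate 1. Peaks of H3K27me3 replicate 1 that replicate 2 lacked were weaker and narrower. Their median fold enrichment, the authors' ratio of summit pileup to local control, was 6.38 against 14.1 for peaks in kept regions, and their median width was 538 bp against 1520 bp. The absence of a peak shows only that none was called at that depth. Whether both libraries of a mark were made from different plants is not said in the labels, so p-values over libraries measure spread that may be technical.

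In silique H3K4me3 formed many short peaks, and H3K27me3 formed fewer with a long tail of wide ones. H3K4me3 lists held 42969 and 44034 peaks and H3K27me3 lists 23955 and 13570, so the marks did not overlap in number. The difference was 24739 peaks (exact permutation test of 2 libraries with 2, two-sided, p = 0.333, the smallest p this design allows; adjusted p = 0.444 over 4 comparisons). Covered length was 40.3 and 33.5 Mb for H3K4me3 and 29.9 and 13.0 Mb for H3K27me3, again without overlap between the marks (difference 15.5 Mb, exact permutation p = 0.333, adjusted p = 0.444). The sign of the difference in covered length turned when every list was held to its 13570 strongest peaks, at -2.74 Mb. Both H3K27me3 libraries held fewer fragments than both H3K4me3 libraries. Mark and depth therefore cannot be told apart in the differences in number and covered length. The longest peak of a list spanned 3878 and 3610 bp for H3K4me3 and 17622 and 8693 bp for H3K27me3 (exact permutation p = 0.333, adjusted p = 0.444).

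Typical widths of single peaks were alike in the 2 marks, and they separated in the tail. Median peak widths were 865 and 701 bp for H3K4me3 and 877 and 709 bp for H3K27me3, a difference of -10.0 bp within the spread between libraries (exact permutation p = 0.667, adjusted p = 0.667). That difference ran from -94.0 to 74.0 bp when single libraries were left out, so it had no settled sign. Peaks of 2 kb or wider made up 2.24% and 0.697% of the H3K4me3 lists and 16.7% and 8.62% of the H3K27me3 lists. Peaks of 5 kb or wider numbered 0 in both H3K4me3 lists and 362 and 37 in the H3K27me3 lists. The shortest peak of each list equalled the fragment size of its library (332 and 248 bp, then 272 and 283 bp), which the peak caller sets as the minimum length. The effect of fragment size on the widths was not tested.

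**Figure D1:**
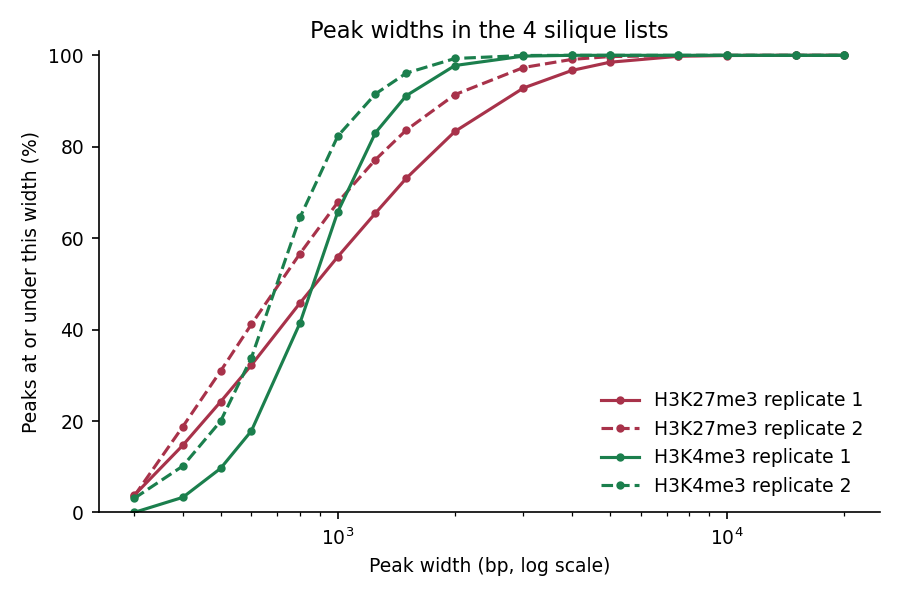
Share of peaks (%) at or under a given width (bp, log scale) in the 4 silique peak lists; green is H3K4me3, red is H3K27me3, solid is replicate 1 and dashed replicate 2. The curves cross near their medians (865, 701, 877 and 709 bp), and above 2 kb both H3K27me3 curves lie under both H3K4me3 curves.

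Among merged regions kept in both libraries the medians differed too, unlike those of single peaks. This difference depended on how regions were formed. Keeping only shared regions left out mostly narrow H3K27me3 peaks of replicate 1 (the medians of 1520 and 538 bp above). Replicate 2 peaks in kept H3K27me3 regions had a median width of 712 bp. A kept H3K27me3 region held a mean of 1.00 peaks of replicate 1 and 1.16 of replicate 2. H3K4me3 regions had a median width of 878 bp, with quartiles of 690 and 1122 bp, and the widest spanned 3878 bp. H3K27me3 regions had a median of 1532 bp, with quartiles of 1004 and 2339 bp, and the widest spanned 17622 bp. The 364 H3K27me3 regions of 5 kb or wider were 3.13% of the regions and held 10.7% of the H3K27me3 bases. Together H3K4me3 regions covered 40.2 Mb, or 4.68% of the 858 Mb spanned by peaks on the 19 sequences, and H3K27me3 regions covered 21.9 Mb, or 2.55%.

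The marks rarely shared bases. Of the H3K4me3 regions, 674 (1.61%) overlapped an H3K27me3 region, and of the H3K27me3 regions 676 (5.82%) overlapped an H3K4me3 region. The 676 overlaps held 0.531 Mb, which was 1.32% of the H3K4me3 bases and 2.43% of the H3K27me3 bases. Each share lay below the share of the whole extent that the other mark covered, 2.55% for H3K27me3 and 4.68% for H3K4me3. The co-marked length was 0.519 of the product of the 2 coverages, and 0.385 of that product taken window by window over 1 Mb, which allows for both marks being dense in the same windows. Over the 4 pairings of a single H3K4me3 list with a single H3K27me3 list, co-marked length ran from 0.360 to 0.873 Mb. Its ratio to the product ran from 0.622 to 0.712, and to the product by windows from 0.467 to 0.525. Both ratios of kept regions lay below these ranges. The 2 pairings with H3K27me3 replicate 2 gave the shorter lengths. No p is given, because regions of a list are not replicates.

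By share of peaks, co-marking was concentrated in the weak H3K4me3 peaks, and H3K27me3 peaks showed no such tilt toward weakness. Of all peaks of H3K4me3 replicates 1 and 2, 1.72% and 1.65% overlapped a kept H3K27me3 region. In the strongest 10% of each list by −log10 q the shares were 0.209% and 0.136%, and in the weakest 10% they were 6.22% and 5.93%. With each list in 10 equal groups by −log10 q, the share was higher in each of the 6 weaker groups than in each of the 4 stronger ones, in both libraries. Among only the 13570 strongest peaks of each list 0.276% of H3K4me3 regions overlapped H3K27me3, and the overlapping peaks stood at percentile 45.96 of those by fold. Of all H3K27me3 peaks of replicates 1 and 2, 5.41% and 4.78% overlapped a kept H3K4me3 region. Here the strongest 10% had 6.34% and 5.38% and the weakest 10% had 3.72% and 4.05%. Strong H3K27me3 peaks were also wider, which gives more room for overlap. Their median widths were 2414 and 1642 bp in the strongest 10%, against 394 and 388 bp in the weakest. The part of width in these shares was not tested.

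**Figure D2:**
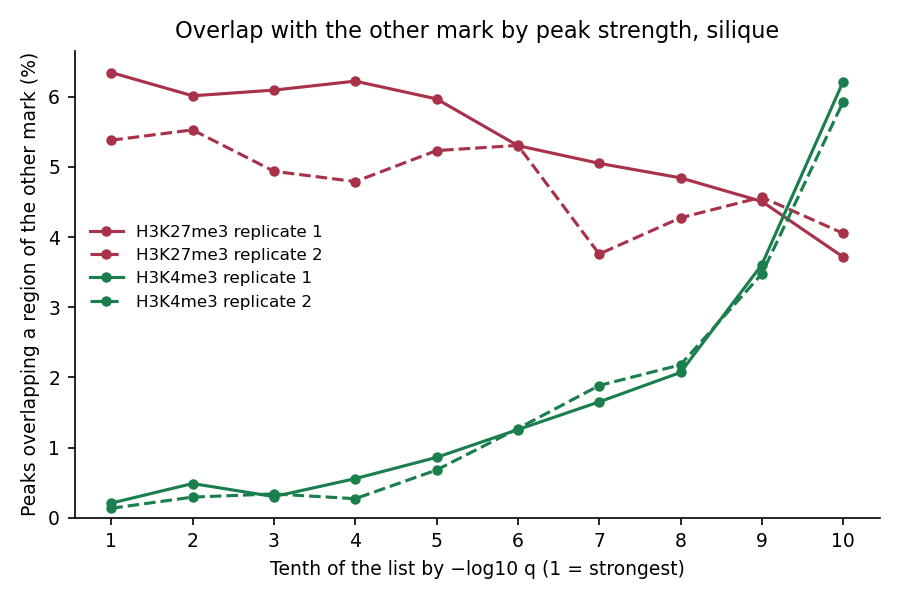
Share of peaks (%) that overlap a kept region of the other mark, in 10 equal groups of each silique list ordered by −log10 q, with group 1 the strongest. Both H3K4me3 lists (green) rise from 0.209% and 0.136% to 6.22% and 5.93%, while the H3K27me3 lists (red) go from 6.34% and 5.38% to 3.72% and 4.05%.

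Fold enrichment gave the same picture within each list. Overlapping H3K4me3 peaks had a median fold of 7.18 in replicate 1 (n = 740 peaks), against 14.7 for the other peaks, and of 8.25 in replicate 2 (n = 725), against 17.0. The median overlapping peak stood at percentile 17.6 and 17.5 of its list by fold. Overlapping H3K27me3 peaks had median folds of 9.68 and 9.65, against 8.74 and 9.05 for the others, and stood at percentiles 55.9 and 55.6. Their widths differed little from the rest of the list, at 863 bp against 878 bp and 712 bp against 709 bp.

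Low H3K4me3 fold was seen in peaks that overlapped H3K27me3 and not in those beside it. H3K4me3 peaks that lay under 1 kb from an H3K27me3 region without touching its bases stood at percentiles 50.2 and 50.7 of their lists by fold (n = 853 and 826 peaks). At 1 to 5 kb the percentiles were 49.6 and 49.4, and beyond 100 kb they were 49.02 and 49.4. For H3K27me3 peaks the percentile was 56.7 and 52.5 under 1 kb from an H3K4me3 region and 50.5 and 50.7 at 1 to 5 kb.

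Where the marks overlapped, H3K4me3 most often lay wholly inside H3K27me3. This was so for 350 of the 676 pairs (51.8%), with a median H3K4me3 width of 773.5 bp inside a median H3K27me3 width of 1984.5 bp. In 246 pairs (36.4%) the overlap ran across 1 edge of each region, and in 80 pairs (11.8%) the H3K27me3 region lay inside the H3K4me3 region. The median overlap was 756.5 bp and the longest 2194 bp. Of the 350 enclosed H3K4me3 regions, 88 (25.1%) had their centre nearer to an edge of the H3K27me3 region than to its middle. Centres of enclosed regions cannot reach the very edge, so this share is a description and not a measure of preference. In overlapping pairs of single peaks the summits, the points of highest coverage, lay a median of 114 to 145 bp apart over the 4 pairings, and 59.7 to 65.7% of the pairs had summits within 200 bp of each other. In 71.4 to 75.1% of pairs each summit lay within the peak of the other mark.

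From 500 bp upward, narrower H3K27me3 regions carried more H3K4me3 per base. H3K4me3 covered 5.68% of the bases of H3K27me3 regions of 500 bp to 1 kb, 3.12% at 1 to 2 kb, 1.58% at 2 to 5 kb and 1.16% in regions of 5 kb or wider. The 207 regions under 500 bp broke this order, with 3.93% of their bases covered and 4.35% of them (9 regions) overlapping. The share of regions with any overlap did not fall steadily with width. It was 6.996% of 2673 regions at 500 bp to 1 kb, 5.30% at 1 to 2 kb (258 of 4870), 5.46% at 2 to 5 kb (191 of 3498) and 8.52% at 5 kb or wider (31 of 364), beside 5.82% of all H3K27me3 regions. No H3K27me3 region overlapped more than 1 H3K4me3 region, and 2 H3K4me3 regions overlapped 2 H3K27me3 regions each. With at most 1 H3K4me3 region in each, the covered share falls with width where overlap is similarly frequent. The trend per base thus largely follows from width. Among H3K4me3 regions, those under 500 bp overlapped H3K27me3 most often, at 2.53% (71 of 2808), beside 1.61% of all.

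Around the edges of H3K27me3 regions H3K4me3 was sparse, and its coverage rose with distance over several kilobases. Outside H3K27me3, H3K4me3 covered 4.74% of all bases. In the 200 bp just outside the edges it covered 1.30%, and in the whole first 1 kb 2.10%. It passed the overall level at 2600 to 2800 bp from the edge and averaged 6.17% from 5 to 10 kb. In the 4 pairings of single lists the first 1 kb had 1.41 to 2.14%, beside overall levels of 3.92 to 4.76%, and the overall level was reached at 2800 to 3400 bp. Around H3K4me3 edges H3K27me3 was sparse too. H3K27me3 covered 2.61% of all bases outside H3K4me3, 1.04% of the first 1 kb outside H3K4me3 edges and 3.36% from 5 to 10 kb.

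The dip at the edge differed with domain width. Just inside the edge, in the first 200 bp, H3K4me3 covered 3.22% of bases in H3K27me3 regions under 2 kb, 0.959% in those of 2 to 5 kb and 0.611% in those of 5 kb or wider. Just outside, it covered 1.64%, 0.616% and 0.684% in the same order. Over the whole first 1 kb outside, the order was different, with 2.12%, 2.00% and 2.87%, and around the widest regions the overall level was reached at 2200 to 2400 bp. Of the 23224 H3K27me3 edges, 408 (1.76%) lay inside an H3K4me3 region, and a further 865 had one within 1 kb outside. The share of edges inside H3K4me3 was higher in all 4 pairings of single lists, at 2.24 to 2.87%, and was 2.83% without H3K27me3 replicate 1 and 2.73% without replicate 2. H3K4me3 flanked or crossed both sides of an H3K27me3 region within 1 kb in 104 cases (0.896%) and 1 side in 1063 (9.15%). The 104 include H3K27me3 regions that lay inside a single H3K4me3 region, a class of 80 pairs in all. The remaining 10445 (89.95%) had none within 1 kb outside either edge. Edges are set by a narrow-peak caller on sonicated fragments of 248 to 332 bp, so distances below this size are not resolved.

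**Figure D3:**
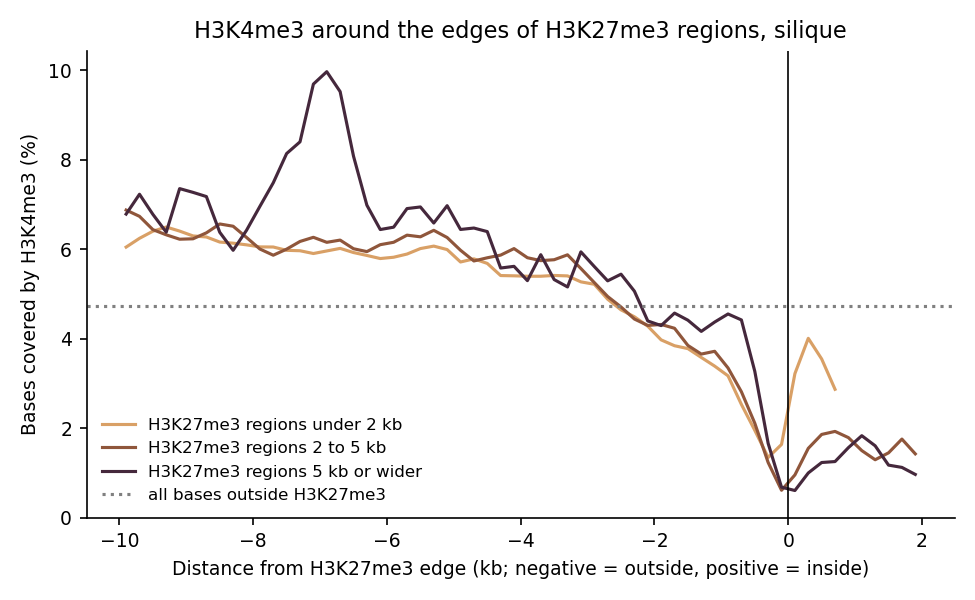
H3K4me3 coverage (% of bases) in 200 bp bins by distance from the edges of kept H3K27me3 regions in silique, outside to the left and inside to the right (inside bins stop at the middle of a region), for 3 width classes; the dotted line is the 4.74% covered over all bases outside H3K27me3. All 3 lines dip to 1.64% or less at the outer side of the edge and lie above the dotted line from 5 to 10 kb; the line for 5 kb or wider rests on 364 regions and is the most uneven.

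In the full lists, most H3K27me3 regions had an H3K4me3 region a few kilobases away, while most H3K4me3 regions were far from H3K27me3. This contrast was much smaller at equal list length. The median distance from an H3K27me3 region to the nearest H3K4me3 region was 6104 bp, with quartiles of 2447 and 13596 bp. The median from an H3K4me3 region to the nearest H3K27me3 region was 24499 bp. Points placed every 1 kb along the sequences had medians of 8153 bp to H3K4me3 and 34412 bp to H3K27me3. At short range this order turned: 13.0% of H3K27me3 regions overlapped or lay within 1 kb of H3K4me3, against 14.04% of the points, even though a region is wider than a point. Within 10 kb the shares were 65.7% and 55.2%. For single lists the median from H3K27me3 to H3K4me3 ran from 6331 to 6593 bp over the pairings. That from H3K4me3 to H3K27me3 ran from 13693 to 24794.5 bp. With every list held to its 13570 strongest peaks, the median from H3K27me3 to H3K4me3 rose to 21273 bp. The median from H3K4me3 to H3K27me3 was then 25946 bp.

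**Figure D4:**
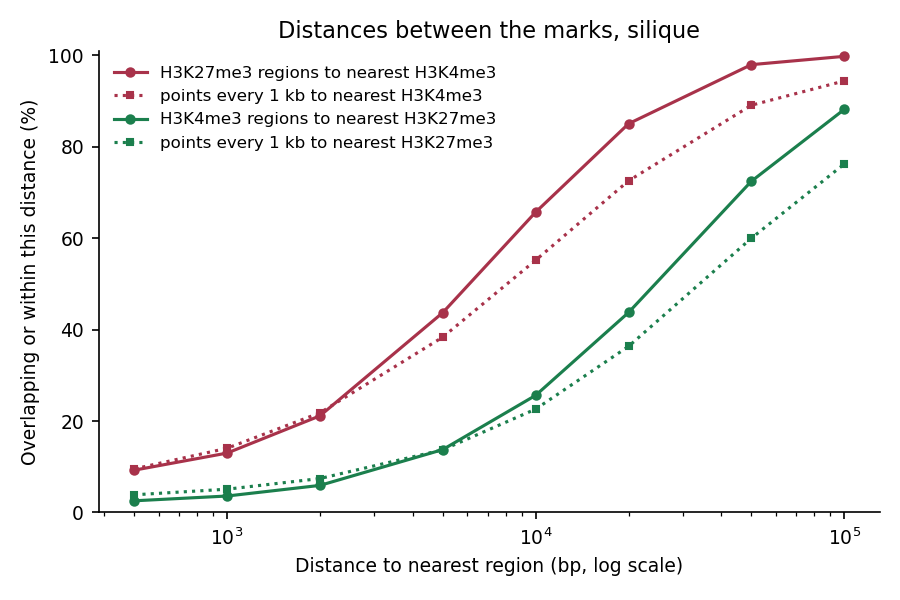
Share (%) of silique regions that overlap or lie within a given distance (bp, log scale) of the nearest region of the other mark (solid), beside the same for points placed every 1 kb (dotted). For H3K27me3 the solid line lies close to its dotted line up to 2 kb (21.1% and 21.8%) and above it at 10 kb (65.7% and 55.2%).

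H3K27me3 regions lay farther apart than H3K4me3 regions, apart from a share of very short gaps. The size of this difference depended on list length. Gaps between neighbouring H3K4me3 regions had a median of 8465 bp and a mean of 19456 bp, and 2.39% were over 100 kb. Gaps between neighbouring H3K27me3 regions had a median of 30379 bp and a mean of 71595 bp, and 19.5% were over 100 kb. Gaps under 1 kb were more frequent for H3K27me3, at 7.04% against 3.61%. This order did not extend to longer gaps, since 11.1% of H3K27me3 and 11.96% of H3K4me3 gaps were under 2 kb, and 19.05% and 34.7% under 5 kb. In the single lists gaps under 1 kb made up 16.1% and 14.7% for H3K27me3 and 3.68% and 4.00% for H3K4me3, so the order under 1 kb held in each library. Narrow-peak calling can break a broad domain into pieces, and short gaps of H3K27me3 include such breaks. Median gaps in the single H3K27me3 lists were shorter than in kept regions, at 12549 and 22045 bp. The single H3K4me3 lists had 8302.5 and 8174 bp. With every list held to its 13570 strongest peaks, the median gap of H3K4me3 rose to 31673 bp. The H3K27me3 median under that setting was close to it, at 33533 bp.

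In order along the sequences, the share of steps that led to H3K27me3 was higher after H3K27me3 than after H3K4me3. After an H3K27me3 region the next region was again H3K27me3 in 34.5% of 11610 steps, while H3K27me3 made up 21.7% of all regions. After an H3K4me3 region it was H3K27me3 in 18.1% of 41974 steps. The longest uninterrupted run of H3K27me3 held 10 regions and the longest of H3K4me3 held 57. Of the 7609 runs of H3K27me3, 66.3% held a single region. Of the 816 gaps under 1 kb between H3K27me3 regions 805 (98.7%) held no H3K4me3, and of the 916 gaps of 2 to 5 kb 830 (90.6%) held none. Bases in gaps of 2 to 5 kb were covered by H3K4me3 at 2.00%, and those in gaps of 10 to 50 kb at 6.33%. A gap of 2 to 5 kb has room for an H3K4me3 region of median width (878 bp). A gap under 1 kb has hardly any, so the share of 98.7% says little about the marks. No share for other stretches of the same lengths is given.

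Both marks were denser on sequences 1 to 10 than on 11 to 19, and their balance differed between single sequences. By order and extent sequences 1 to 10 were assigned to the A and 11 to 19 to the C chromosomes, since their extents follow those of the Da-Ae assembly (Pearson r = 0.994, Spearman rho = 0.991 over 19 sequences, given as a description). No coordinate of that assembly is used. H3K4me3 had 63.2 regions per Mb on the A and 40.9 on the C sequences, and H3K27me3 18.5 and 10.7. The ratio of A to C density was 1.55 in both H3K4me3 lists and 1.62 and 1.73 in the H3K27me3 lists. The C sequences held 53.04% of the H3K4me3 bases and 50.05% of the H3K27me3 bases. In single lists this was 53.03% and 53.1% for H3K4me3 and 50.96% and 49.7% for H3K27me3, without overlap between the marks, where 2 against 2 libraries cannot reach a p below 0.333.

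Sequence 2 (assigned to A2) was richest in H3K27me3 relative to H3K4me3, with 43.8 H3K27me3 regions per 100 H3K4me3 regions. Sequences 4 (A4) and 14 (C4) followed with 36.04 and 33.3, and the lowest were 15 (C5) with 21.6, 6 (A6) with 21.95 and 18 (C8) with 23.3, beside 27.7 over all 19. Sequence 2 held the most H3K27me3 regions per Mb of all 19, at 22.7, and the fewest H3K4me3 regions per Mb of the A sequences, at 51.8 in a range up to 71.0. In single lists the ratio on sequence 2 ran from 49.8 to 81.9 and on sequence 15 from 23.9 to 43.1, higher with H3K27me3 replicate 1 than with replicate 2. The share of H3K27me3 regions that overlapped H3K4me3 ran from 4.11% on sequence 12 to 8.20% on sequence 7, beside 5.82% overall.

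**Figure D5:**
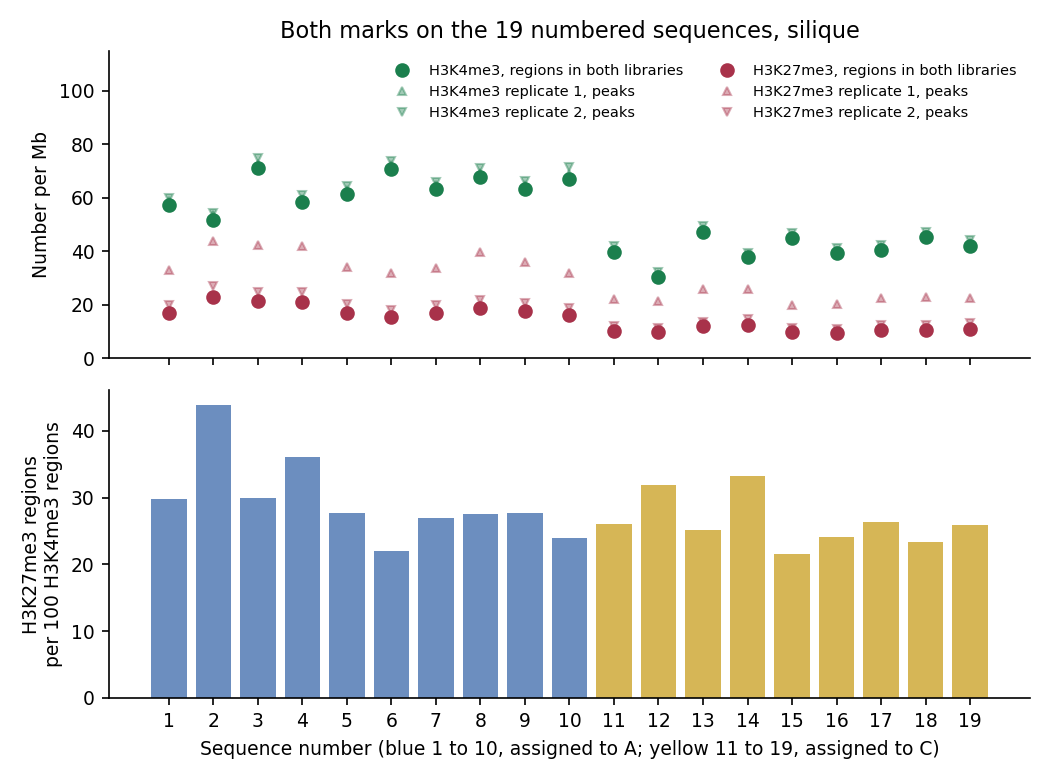
Upper panel, kept regions (circles) and single-list peaks (triangles) per Mb on each of the 19 numbered sequences in silique; lower panel, H3K27me3 regions per 100 H3K4me3 regions. Both marks are denser on sequences 1 to 10, and the ratio is highest on sequence 2 (43.8) and lowest on sequence 15 (21.6).

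Along the sequences both marks followed the same course. In 850 full windows of 1 Mb the numbers of the 2 marks had a Spearman rho of 0.801 (0.795 to 0.820 over the pairings of single lists), a description of neighbouring windows that share sequence and mappability. No window held more H3K27me3 than H3K4me3 regions, 48 held no H3K27me3 region and 7 no H3K4me3 region. Windows with 68 or more H3K4me3 regions averaged 24.03 H3K27me3 regions, and those with 28 or fewer averaged 3.82. The outermost 10% at each end of the sequences together held 30.9% of the H3K27me3 regions, 28.3% of the H3K4me3 regions and 33.7% of the co-marked stretches. In single lists these ends held 29.4% and 31.2% of H3K27me3 and 28.3% of H3K4me3 in both.

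The 5 widest H3K27me3 regions of silique included 1 that overlapped H3K4me3. They lay on sequence 3 from 18757537 to 18775158 (17622 bp), sequence 14 from 1848048 to 1862592 (14545 bp), sequence 19 from 61194067 to 61206643 (12577 bp), sequence 2 from 3791023 to 3803099 (12077 bp) and sequence 3 from 3442979 to 3453987 (11009 bp). Folds in silique replicates 1 and 2 were 38.7 and 23.8, 65.2 and 35.3, 44.3 and 28.1, 25.8 and 19.7, and 27.8 and 18.8 in that order. Replicate 1 had 1 peak in each of these regions, and replicate 2 had 7, 6, 5, 3 and 2 separate peaks. The longest peak of replicate 2 spanned 8693 bp, so none of these widths was called as 1 peak in that library. The region on sequence 3 from 3442979 overlapped an H3K4me3 region over 584 bp. The other 4 were 2418 to 13535 bp from the nearest H3K4me3 region. Most H3K27me3 regions of any width held no H3K4me3. Overlap was found in 8.52% of those of 5 kb or wider (31 of 364), beside 5.82% of all.

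Overlap with H3K27me3 was found in 1.63% of H3K4me3 regions of 2 kb or wider (16 of 979), beside 1.61% of all. The widest H3K4me3 regions were all clear of H3K27me3, as most H3K4me3 regions of any width were. On sequence 3 from 5192128 to 5196005 (3878 bp) the folds were 46.2 and 57.9, and the nearest H3K27me3 region was 57458 bp away. On sequence 11 from 3036191 to 3040027 (3837 bp) the folds were 87.4 and 86.3 in silique and 48.4 to 50.3 in the 4 other H3K4me3 libraries. The remaining 3 lay on sequence 3 from 11593211 to 11596985, on sequence 17 from 43636962 to 43640732 and on sequence 13 from 8133998 to 8137738, at 9045, 34930 and 21713 bp from H3K27me3.

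The 5 longest co-marked stretches differed in the folds of both marks. The longest ran over 2194 bp on sequence 12 from 59715767 to 59717960, with H3K4me3 folds of 8.43 and 9.95 and H3K27me3 folds of 12.8 and 9.90. There, flower bud had both marks, and seedling had H3K4me3 (12.5 and 14.5) and no H3K27me3 peak. On sequence 18 a stretch of 1896 bp ran from 40904526 to 40906421, with folds of 16.1 and 11.7 for H3K4me3 and 12.2 and 9.09 for H3K27me3. Higher H3K4me3 folds were found in a stretch of 1759 bp on sequence 18 from 42809704 to 42811462, with H3K4me3 folds of 42.2 and 41.5 and H3K27me3 folds of 18.1 and 11.1. Its H3K4me3 folds in seedling and flower bud were 8.87 to 12.5, beside H3K27me3 folds of 14.6 to 27.9. On sequence 3 from 14888410 to 14890163 (1754 bp) H3K4me3 lay inside an H3K27me3 region of 4673 bp whose folds, 60.2 and 29.7, gave it the highest lower fold of all co-marked H3K27me3 regions. The fifth, on sequence 9 from 18899046 to 18900785 (1740 bp), had H3K4me3 folds of 5.73 and 6.49 in silique and no H3K4me3 peak in seedling or flower bud, where H3K27me3 was present.

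Among co-marked H3K4me3 regions the strongest by the lower fold included some with short contact. One on sequence 11 (40447046 to 40448277) had H3K4me3 folds of 51.2 and 64.8 and shared 183 bp with H3K27me3, and one on sequence 10 (9539107 to 9540172) had 50.5 and 63.96 and shared 689 bp. On sequence 3 from 231356 to 232886 the folds were 45.7 and 48.03 in silique and 13.1 to 21.8 in the other tissues, with 1323 bp shared. On sequence 9 from 5236419 to 5238156 they were 44.04 and 53.6 with 1389 bp shared, and the region of sequence 18 from 42809561 was the fifth. The strongest co-marked H3K27me3 regions after that of sequence 3 lay on sequence 5 from 5623726 to 5625936 (folds 50.02 and 28.4), sequence 9 from 774780 to 780979 (45.9 and 28.04), sequence 7 from 21052044 to 21053559 (43.99 and 26.9) and sequence 9 from 43374502 to 43381843 (32.7 and 26.7). In the last, of 7342 bp, the contact was 52 bp.

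The most isolated regions showed how far the marks could be apart. The H3K27me3 region farthest from H3K4me3 lay on sequence 9 from 20282732 to 20284718, at 305666 bp, with folds of 12.5 and 10.4. The next 4 were on sequences 11, 9, 15 and 11, at 174201 to 177884 bp. The 5 H3K4me3 regions farthest from H3K27me3 all lay on sequence 19 between 34044143 and 35282505, at 1853305 to 2057276 bp. Of these 4 had folds of 21.8 to 43.3, and the other, on sequence 19 from 34070525 to 34070932, had 4.77 and 6.55. The longest gap without a kept H3K27me3 region was 5091231 bp. In the single lists the longest H3K27me3 gap was 3062799 bp in replicate 1 and 5093871 bp in replicate 2. Replicate 1 thus had peaks within the gap of 5091231 bp, and peaks outside kept regions did not enter these distances.

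Co-marked stretches of silique mostly kept H3K27me3 in the other tissues and kept H3K4me3 less often. Of the 676 stretches, 653 (96.6%) had H3K27me3 in both flower bud libraries and 528 (78.1%) in both seedling libraries. H3K4me3 was present in both libraries at 440 (65.1%) in flower bud and 441 (65.2%) in seedling. For comparison, 98.9% and 87.2% of all silique H3K27me3 regions had H3K27me3 in flower bud and seedling, and 92.9% and 94.5% of all silique H3K4me3 regions had H3K4me3 there. Both marks were present at 418 stretches (61.8%) in flower bud, at 310 (45.9%) in seedling and at 240 (35.5%) in both. In 193 stretches (28.6%) flower bud had H3K27me3 and no H3K4me3 peak, and in 18 (2.66%) the reverse. In seedling these shares were 25.9% and 14.2%. Weak H3K4me3 peaks are the ones most easily missed in another list, and the part of peak strength in these shares was not tested.

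Silique H3K4me3 peaks overlapped H3K27me3 less often than those of the other tissues, by a difference that did not pass the test. Against kept H3K27me3 regions of the same tissue, the silique shares were 1.72% and 1.65%. Seedling lists had 2.04% and 2.22%, and flower bud lists 3.48% and 3.51%. Both silique values lay below the 4 others (difference of means -1.13 percentage points, two-sided exact permutation p = 0.133, adjusted p = 0.267 over both marks, smallest possible p 0.0667). With every H3K4me3 list held to its 42969 strongest peaks and every H3K27me3 list to its 13570 strongest, the difference was 0.0535, with silique at 1.53%, seedling at 0.932% and flower bud at 2.01%, so its sign depended on list length. The H3K27me3 lists differed in depth between tissues, from 2654588 to 11513204 fragments, and the part of depth in this difference was not tested. For H3K27me3 peaks the silique shares were 5.41% and 4.78%. Those of seedling were 5.06% and 4.78% and those of flower bud 5.53% and 5.93% (difference -0.231, exact permutation p = 0.533, adjusted p = 0.533). The dip of H3K4me3 outside H3K27me3 edges was present in each tissue, at 2.10% in the first 1 kb in silique, 1.72% in seedling and 2.14% in flower bud, beside 4.74%, 4.34% and 4.34% outside H3K27me3 overall.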

How the data were processed

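ChIP-seq peak lists of 12 libraries were used, 1 list per library and none from pooled libraries. Per the labels' protocols, about 1 g of tissue was cross-linked with 1% formaldehyde and chromatin was sonicated to 200 to 600 bp. The tools named in the submitters' processing notes are BWA, SAMtools, GATK and MACS2. MACS 2.2.7.1 called narrow peaks from read pairs, per the file headers, with 1e-05 as the q cutoff, against the same merged control of 12042843 fragments, with 1 fragment kept per duplicate position. The genome build is not given in the sources used here. As deposited by the authors, pileup is a signal (fragment coverage at the summit), the −log10 of each p-value and q-value is given, and fold enrichment is a ratio to the local control. Folds were ranked only within a list, and folds of named regions in several libraries stand side by side as the authors' values, not scaled between lists and not tested.

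Peaks on the 19 numbered sequences were merged and intersected with Python 3.11.15, numpy 2.4.6, pandas 2.3.3 and scipy 1.17.1. The interval functions were tested on simulated data. Extents are the last peak end on each sequence over the 12 lists. Single values per library were compared with two-sided exact permutation tests and Benjamini-Hochberg adjustment. Regions are not replicates, so shares and distances carry ranges over lists and no p. Named regions are the 5 widest of each mark, the 5 longest co-marked stretches, the 5 farthest from the other mark, the 5 strongest co-marked by the lower fold, and the 3 sequences at each end of the ratio of the marks. A rule for the 5 H3K27me3 regions with the most H3K4me3 regions gave only ties at 1 and names none. Members and rules were chosen with earlier results of these data known.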

Additional observations from a re-analysis of the deposited data

Results flagged for a closer look

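Covered length differed in sign between tissues. In silique H3K4me3 peaks covered more than H3K27me3 peaks in every pairing of libraries, by a mean of 15.5 Mb (3.62 to 27.3 Mb over the 4 pairings). In flower bud they covered less in every pairing, with a mean difference of -3.10 Mb (-6.03 to -0.165 Mb). The difference between the tissues was not tested. The H3K27me3 libraries of flower bud held 11513204 and 10929797 fragments, against 7441109 and 2654588 for silique, and the part of depth was not tested.

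Peaks on sequences other than the 19 numbered ones entered no comparison. The silique lists held 41 and 39 such peaks of H3K4me3 and 23 and 9 of H3K27me3, each above the 3 that a count of 0 allows, and at most 0.0959% of a list.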

How the results depend on the processing

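No paired analysis was possible because the labels give the libraries no replicate numbers shared between groups. Depth limits the lists: H3K27me3 replicate 2 had 2654588 fragments, and an overlap missing there shows only that no peak was called.

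With the 13570 strongest peaks of each list, which leaves out weak H3K4me3 peaks, there were 12313 H3K4me3 regions, overlap fell to 0.276% of H3K4me3 and 0.338% of H3K27me3 regions, co-marked bases to 0.187% and 0.140% (0.0294 Mb), and the ratio to the product of coverages to 0.0765. Median distance from H3K27me3 was 21273 bp, the median H3K4me3 gap 31673 bp, the C share of H3K4me3 bases 52.1%, H3K4me3 coverage in the first 1 kb outside H3K27me3 edges 0.343 of the overall level (0.444 as reported), and the covered-length difference turned to -2.74 Mb. With −log10 q of 10 or more, co-marked H3K27me3 bases were 2.19%, the ratio 0.471, and the gaps 8585 and 38546 bp. With 50% coverage by each library there were 7671 H3K27me3 regions, H3K4me3 lay 35666.5 bp from H3K27me3, the gaps were 8539 and 48733.5 bp, and the C share of H3K4me3 was 53.1%. With core bases, 4.65% of H3K27me3 regions overlapped, the ratio was 0.668, the distance 6861 bp, the edge value 0.353, the H3K27me3 gap 22062 bp, regions of 5 kb or wider 36, and the C share 53.1%. With peaks within 1000 bp joined, 6.62% overlapped, the ratio was 0.476, the distance 5778 bp, the H3K4me3 gap 9014 bp, wide regions 770 and the C share 52.9%. An overlap of 200 bp or more moved neither share of overlapping regions beyond the spread over lists. The ratio to the product stayed under 1, and the edge value under 1, in each setting run. With 42969 peaks in each H3K4me3 list and 13570 in each H3K27me3 list of the 12, the silique differences from other tissues turned to 0.0535 (exact permutation p = 0.867) for H3K4me3 and 0.416 (exact permutation p = 0.733) for H3K27me3. The causes were not tested.

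Leaving out single silique libraries judges a mark on its other library. Values then ran from 41991 to 44034 for H3K4me3 regions, 11612 to 23955 for H3K27me3 regions, 1.51 to 3.03% and 4.78 to 6.38% for overlapping regions of H3K4me3 and H3K27me3, 0.963 to 2.09% and 2.18 to 2.98% for their co-marked bases, 0.387 to 0.840 Mb for co-marked length and 0.535 to 0.637 for the ratio. They ran from 13742 to 24709 bp and 5930 to 6766 bp for the distances, 8174 to 8465 bp and 12549 to 30379 bp for the gaps, 0.384 to 0.448 for the edge value, 1.20 to 2.83% for H3K27me3 edges inside H3K4me3 (over 1.5 times the reported 1.76% without either H3K27me3 library), 37 to 364 for wide regions, and 53.03 to 53.1% and 49.7 to 50.96% for the C shares. The differences between the marks ran from 19547 to 29932 peaks, -94.0 to 74.0 bp of median width, 7.02 to 23.9 Mb and -13878 to -4949 bp of longest peak, and those from other tissues from -1.16 to -1.09 and from -0.543 to 0.0809 percentage points. Without H3K27me3 replicate 2 the overlapping H3K4me3 share, its co-marked bases, the H3K27me3 region count and co-marked length rose by over 1.5 times, the H3K4me3 distance and the H3K27me3 gap fell by as much, the share difference for H3K27me3 peaks turned, and without replicate 1 regions of 5 kb or wider fell to 37.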

Other observations

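Around H3K27me3 regions of 5 kb or wider, H3K4me3 coverage was highest at 6800 to 7000 bp outside the edge, at 9.97% of bases, while regions of 2 to 5 kb had their highest value, 6.88%, at 9800 to 10000 bp. The wide class holds 364 regions, and the place of the maximum was chosen after its values were seen.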
